A study of Rattus norvegicus with 32 samples.

Results

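The quantity described here is the change in the liver response to inhaled ozone between the first and the second day of exposure. It was taken as a difference of differences: ozone minus air at the end of day 2, less ozone minus air at the end of day 1. By their titles, 22 of the 32 arrays of the series belong to the 4 groups that this difference needs. The animals were male Wistar Kyoto rats, 10 weeks old and weighing 250 to 300 g, with no transgene, deletion or drug named in the labels. They breathed filtered air or ozone at 1 ppm for 6 h per day. Day 1 livers (6 arrays after air, 6 after ozone) were taken as the only exposure ended, and day 2 livers (5 arrays after air, 5 after ozone) as the second exposure ended, so each day had air controls of its own. The remaining 10 arrays, from livers taken 18 h after the second exposure, served only to estimate the spread.

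Ozone is an oxidant gas that reacts with the fluid and cells lining the airways and is largely consumed there, so the liver meets it through circulating hormones, cytokines and metabolites. The liver answers such signals with inflammatory and acute phase genes, with stress and antioxidant genes, and with shifts in amino acid, lipid and bile acid metabolism. With repeated daily exposure, several lung responses to ozone are known to become smaller, which is called adaptation. The difference between the days measures whether the ozone effect on a liver transcript was larger or smaller after the second exposure than after the first.

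Values are probe-set intensities, the brightness of the set of array probes that reads 1 transcript. Differences are on the log2(value + 16) scale, where 1 unit is a doubling of the intensity plus 16, with standard errors (SE) from limma. Of 19062 probe sets, each tied to 1 gene, the brightest of a gene stood for it in the gene lists, which gives 13437 genes. A value is said to pass, or to be called, where its adjusted p from limma (two-sided, Benjamini-Hochberg over all 19062 probe sets) is below 0.05. Whether each array stands for a separate animal is not in the labels, so the p-values measure only the spread between these samples, and the number of arrays limits the precision. The tissue is bulk liver, in which fewer cells of a type and less RNA per cell cannot be told apart.

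Array medians lay between 147 and 161 intensity units. The median over nonspecific-binding probes was low on a pair of day 1 arrays, air replicate 2 at 54.3 and ozone replicate 3 at 66.1, and ran from 85.2 to 92.0 on the rest. The hepatocyte markers were the brightest marker list in all 4 groups, with summed intensities between 86307 and 98151, and those of neutrophils and monocytes lay between 1182 and 1448. Among the 12 Kupffer cell and macrophage markers, 9 neutrophil and monocyte markers, 15 lymphocyte, 14 stellate cell, 12 endothelial, 5 erythroid and 13 pancreas and adipose markers, 0 passed for the difference between the days. Of all genes, 2.22% were called higher and 1.44% lower in it. At those shares lists of this size would hold few calls, so the 0 does not show that these cell types were unchanged. Each array was also set against the mean of the other arrays of each group, after centring every probe set on its mean over all arrays. Day 2 air replicate 5 correlated at -0.50 with its own group and at 0.56 with the day 2 ozone arrays, and day 2 ozone replicate 5 correlated at -0.23 with its own group and highest, at 0.64, with the ozone livers of the later harvest. Some air arrays lay closer to the air group of the other day: day 2 air replicates 1 and 2 correlated at -0.049 and 0.25 with their own group and at 0.64 and 0.55 with day 1 air, and day 1 air replicate 5 at 0.45 and, with day 2 air, 0.60. Both replicate 5 arrays of day 2 keep their labels as deposited, and results that rest on them are also given without the pair. That choice was made after the data were seen, and dropping arrays that lie far from their own group can by itself enlarge group differences. Keeping arrays that lie closer to another group can in turn make the day 2 effect smaller and the difference between the days larger. Neither setting is therefore free of this limit.

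The ozone effect on the liver was smaller after the second exposure for most of the transcripts in which the 2 days differed. The difference between the days was called for 618 of 19062 probe sets (3.24%), 361 with a higher and 257 with a lower ozone effect on day 2, in 578 genes. The median size of these differences was 0.36, and 12 were at least 2-fold. Of the 618 probe sets, 573 were called on day 1, 5 on day 2 and 40 on neither day. The ozone effect had the same sign and a smaller size on day 2 in 320 of them, the opposite sign in 295 and a larger size with the same sign in 3. Its size was smaller on day 2 in 92.1% of the 618, and in 71.3% of all probe sets. This share describes probe sets chosen by the same contrast and carries no test.

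The day 1 effect alone was called for 4316 probe sets (22.6%), 1932 higher and 2384 lower after ozone, and the day 2 effect for 29 (0.152%), 17 higher and 12 lower. Those called on day 1 had a median effect size of 0.22 on day 1 and 0.07 on day 2. The 29 called on day 2 had a median size of 0.24 on day 1 and 0.44 on day 2. Each of these sets was chosen by 1 of the 2 days, which inflates that day. Over all 19062 probe sets the 2 ozone effects, which share no array, had a Pearson r of 0.58 and a slope of day 2 on day 1 of 0.32.

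Without replicate 5 of both day 2 groups, the difference was called for 214 probe sets (1.12%), 114 higher and 100 lower, of which 190 were among the 618. The day 2 effect was then called for 1635 probe sets (8.58%), r was 0.73 and the slope 0.59. Day 2 effects that had been small thus became larger, and the gap between the days narrowed, although it did not close. In this setting 78.5% of the 214 probe sets had a smaller effect on day 2, against 63.4% of all probe sets. Leaving out single arrays moved the count to 392 without day 2 air replicate 5, to 263 without day 2 ozone replicate 5 to 390 without day 2 ozone replicate 1 and to 926 without day 2 air replicate 1.

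**Figure D1:**
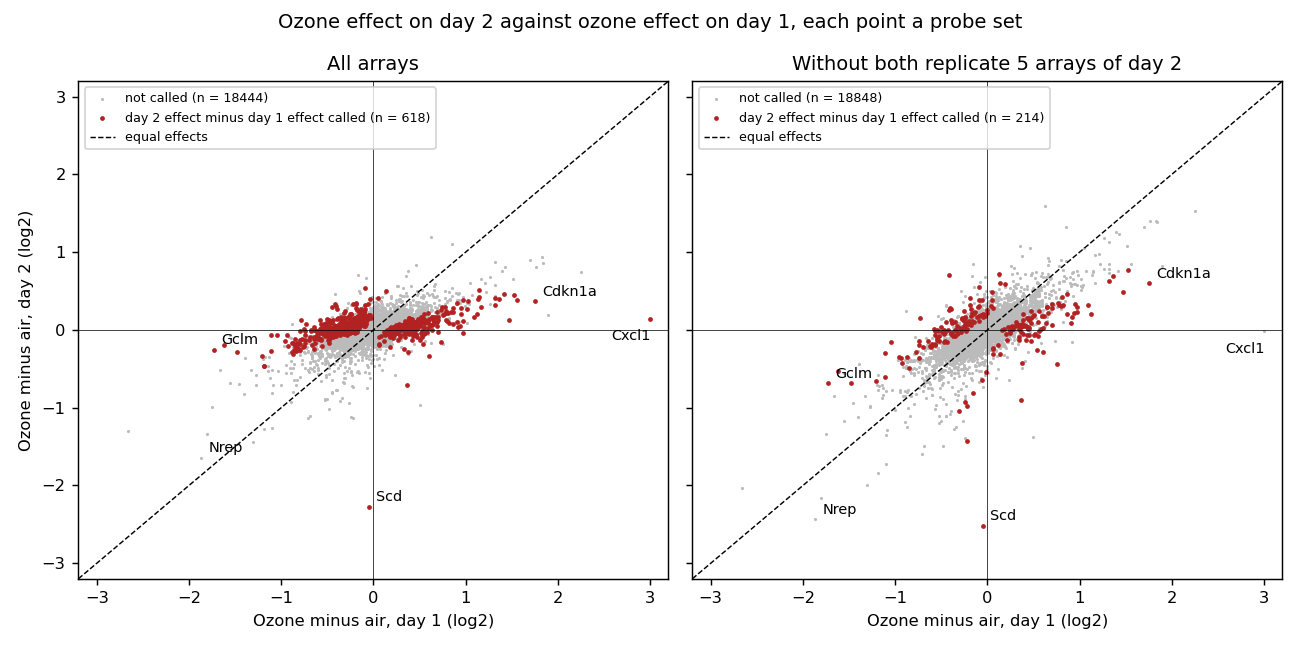
Ozone minus air on day 2 (vertical axis, log2) against ozone minus air on day 1 (horizontal axis, log2), each point a probe set, with all arrays on the left and without both replicate 5 arrays of day 2 on the right. Red points are probe sets with a called difference between the days (618 on the left, 214 on the right), and on the left most of them lie closer to the horizontal zero line than to the dashed line of equal effects.

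The gap between the days came mainly from the ozone livers. Ozone livers of day 2 differed from ozone livers of day 1 in 1887 probe sets (9.90%), 1062 higher and 825 lower, while air livers differed in 3 (0.0157%), with 1309 at an unadjusted p below 0.05 in the same limma fit. All 3 read Ccnd1, which encodes cyclin D1 and is named here after its values were seen; its brightest probe set fell by 0.56 in air livers (adjusted p = 0.011). Among the 618 probe sets, the ozone side moved further than the air side in 594 (96.1%, against 56.3% of all probe sets), with median sizes of 0.29 and 0.07. Without day 2 ozone replicate 5 the ozone side had 1090 called probe sets, and without day 2 air replicate 1 the air side had 13. Each side is 1 of the 2 parts of the difference that chose these probe sets, so the sizes are a description.

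**Figure D2:**
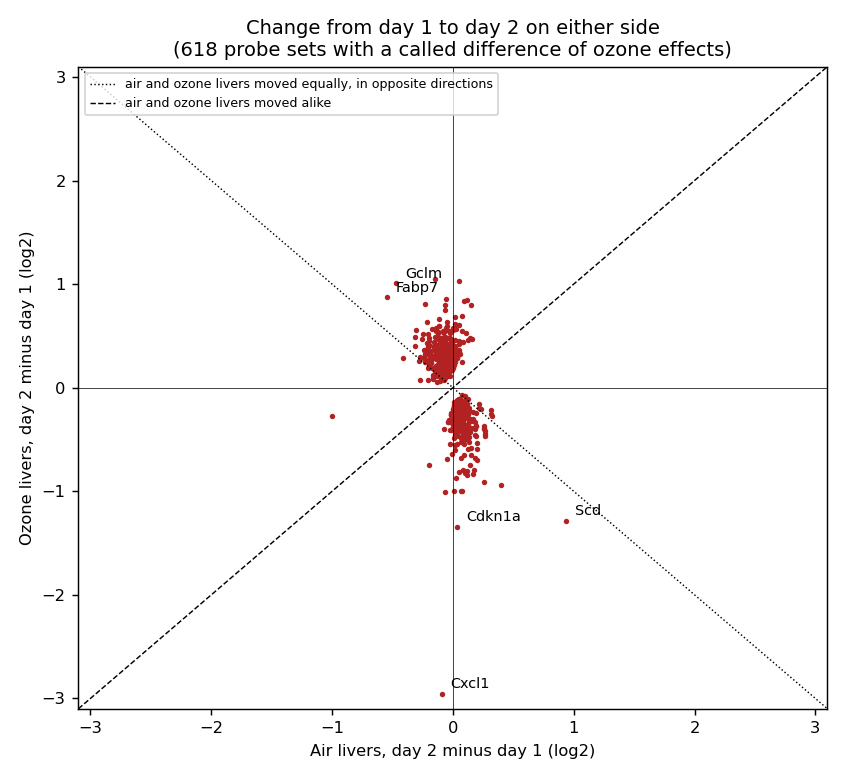
Day 2 minus day 1 in the ozone livers (vertical axis, log2) against day 2 minus day 1 in the air livers (horizontal axis, log2) for the 618 probe sets with a called difference between the days. Most points spread along the vertical axis, with Cxcl1 lowest, and Scd, at -1.28 for ozone and 0.94 for air livers, lies away from that axis.

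Cxcl1, Stat3, Slc39a14 and Lgals9, genes of inflammation and cytokine signalling, rose after ozone on day 1 and had no called ozone effect on day 2. Cxcl1, a chemokine that draws neutrophils, had day 1 air intensities between 119.9 and 345.6 (median 146.6) and day 1 ozone intensities between 601.8 and 2222 (median 1727). On day 2 its air arrays read 174.0, 177.5, 136.7, 173.0 and 154.2 and its ozone arrays 163.3, 179.9, 150.6, 159.0 and 276.0. The day 1 groups did not overlap, as in 14.0% of all genes, and the day 2 groups did. The ozone effect was thus 3.00 on day 1 (8.02-fold) and 0.15 on day 2, a difference of -2.86 (SE 0.78, limma adjusted p = 0.036). The difference had about the same size, -3.02, without both replicate 5 arrays of day 2, but its adjusted p was 0.075. The call was also lost when any 1 of 14 arrays was left out: day 1 air replicate 1, 2, 3 or 5, day 1 ozone replicate 2, 3, 4 or 5, day 2 air replicate 2, 4 or 5, or day 2 ozone replicate 1, 2 or 5. The adjusted p then reached at most 0.061, and the difference lay between -3.12 and -2.75.

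Of the 19 chemokine and leukocyte adhesion genes measured, Cxcl1 was the 1 member with a called difference, a lower one. The background is 2.22% of genes with a called higher and 1.44% with a called lower difference. Cxcl12, a chemokine that holds stem and immune cells in tissue, had the next smallest p, with effects of -0.56 on day 1 and -0.14 on day 2 (adjusted p of the difference 0.23). On day 1 the list had 2 genes called higher and 4 called lower after ozone, beside 11.0% and 13.5% of all genes. The rise of Cxcl1 was thus not a rise of the list. The list's median effect size was 0.13 on day 1 and 0.03 on day 2, against 0.06 and 0.03 over all genes.

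Stat3, the transcription factor through which IL-6 switches on acute phase genes, was called in the same direction. Its intensities ran from 583.1 to 913.6 (median 716.4) after air and from 1150 to 2025 (median 1647) after ozone on day 1. On day 2 the air arrays read 724.3, 842.1, 843.0, 709.9 and 819.4 and the ozone arrays 884.0, 1012, 918.1, 804.4 and 915.1. The day 1 groups stood apart and the day 2 groups overlapped through 1 ozone array. The ozone effect was 1.12 on day 1 and 0.20 on day 2, and the difference of -0.92 (SE 0.19, adjusted p = 0.0076) was -0.91 without both replicate 5 arrays (adjusted p = 0.028). Stat3 was the 1 called gene of the 29 acute phase and IL-6 genes measured. Hamp, which encodes the iron hormone hepcidin, differed by 0.56 without passing (adjusted p = 0.085). The secreted acute phase proteins of the list therefore gave no call for the difference. On day 1 the list had 4 genes called higher and 2 called lower after ozone, beside 11.0% and 13.5% of all genes. The list's median effect sizes were 0.07 on day 1 and 0.09 on day 2.

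Slc39a14, a zinc importer of hepatocytes that is raised in inflammation, and Lgals9, a galectin that acts on immune cells, followed Stat3. Slc39a14 read 937.1 to 1149 (median 978.0) after air and 1259 to 1728 (median 1596) after ozone on day 1. Its day 2 air arrays read 1035, 1145, 1138, 1045 and 1130 and its day 2 ozone arrays 1136, 1208, 1087, 1029 and 1358. Ozone and air arrays were apart on day 1 and mixed on day 2, and the difference was -0.53 (SE 0.11, adjusted p = 0.0086), or -0.57 without both replicate 5 arrays (adjusted p = 0.013). It was the 1 called gene of the 7 metallothionein and zinc transport genes, and the metallothionein Mt1 did not pass (0.24, adjusted p = 0.14).

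Lgals9 read 511.4 to 708.5 (median 606.1) after air and 804.0 to 1084 (median 921.8) after ozone on day 1. Its day 2 air arrays read 605.9, 727.6, 536.3, 548.2 and 499.6 and its day 2 ozone arrays 425.3, 467.7, 533.4, 549.2 and 328.1. Ozone arrays were all above air arrays on day 1, while on day 2 they overlapped the air arrays and 3 of them lay below all of those, with an effect of -0.34 that did not pass (adjusted p = 0.36). The difference between the days was -0.95 (SE 0.20, adjusted p = 0.0070) and -0.89 without both replicate 5 arrays (adjusted p = 0.022).

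The promoter of Cxcl1 is shown because this gene had the largest difference of all named genes. Those of Gclm and Hspa8, described below, stand beside it as the genes that lead the glutathione and chaperone lists by size of difference. Each is the 250 bases before the gene start, from RefSeq on the build GRCr8, written 5′ to 3′ on the gene's strand. Promoters were found for 41 of the 47 named genes with a called difference. Capitals mark an NF-kappaB site in Cxcl1 (chr14:17479322-17479571, minus strand), the letters TGACNNNGC of an antioxidant response element in Gclm (chr2:213031885-213032134, plus strand) and a heat shock element in Hspa8 (chr8:50080264-50080513, plus strand), each searched on both strands.
Cxcl1: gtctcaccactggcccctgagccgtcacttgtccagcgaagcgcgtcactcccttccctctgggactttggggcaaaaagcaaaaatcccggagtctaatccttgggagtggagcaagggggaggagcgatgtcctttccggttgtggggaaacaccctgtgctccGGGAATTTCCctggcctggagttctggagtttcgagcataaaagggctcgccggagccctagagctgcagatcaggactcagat
Gclm: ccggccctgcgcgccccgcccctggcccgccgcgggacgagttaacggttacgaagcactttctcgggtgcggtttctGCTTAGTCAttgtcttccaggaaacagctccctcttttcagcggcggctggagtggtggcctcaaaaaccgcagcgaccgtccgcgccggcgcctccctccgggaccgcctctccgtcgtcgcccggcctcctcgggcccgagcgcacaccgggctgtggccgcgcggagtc
Hspa8: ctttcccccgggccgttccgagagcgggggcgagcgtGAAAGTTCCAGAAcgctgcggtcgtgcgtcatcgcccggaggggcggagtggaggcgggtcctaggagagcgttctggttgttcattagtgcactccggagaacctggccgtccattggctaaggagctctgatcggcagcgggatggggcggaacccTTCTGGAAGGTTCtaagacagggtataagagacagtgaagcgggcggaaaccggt
The NF-kappaB letters lie 84 to 75 bases before the start of Cxcl1 and occur in 0.0687% of 33469 promoters of this length. The antioxidant letters lie 172 to 164 bases before the start of Gclm, on the other strand as GCTTAGTCA, and are common, in 10.1% of promoters and in 6 of the 41. The heat shock letters occur in 2 places before Hspa8, 213 to 201 and 55 to 43 bases from the start, and in 0.663% of promoters. A match describes the sequence and says nothing of whether a factor was bound.

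A pair of growth arrest genes also had a smaller ozone effect on day 2. Cdkn1a, the p21 inhibitor of cyclin-dependent kinases, read 216.7 to 263.9 (median 230.7) after air and 372.1 to 1110 (median 935.2) after ozone on day 1. On day 2 the air arrays read 226.2, 232.2, 222.9, 216.1 and 319.4 and the ozone arrays 304.9, 277.1, 433.6, 402.1 and 210.3. The day 1 groups were apart, and on day 2 only the replicate 5 arrays crossed, with the air array within the range of the ozone arrays and the ozone array below all air arrays. The ozone effect was 1.75 (3.36-fold) on day 1 and 0.37 on day 2, a difference of -1.38 (SE 0.27, adjusted p = 0.0050). It was -1.15 without both replicate 5 arrays (adjusted p = 0.027).

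Ccng1, which encodes cyclin G1 and is a p53 target, had effects of 0.65 on day 1 and 0.07 on day 2 (difference -0.58, adjusted p = 0.012; 0.061 without both replicate 5 arrays). Cdkn1a and Ccng1 were the 2 called genes of the 11 p53 and growth arrest genes measured, both lower, beside 1.44% of all genes. Of 24 cell cycle genes, 1 was called, Rrm2, a subunit of the enzyme that makes deoxyribonucleotides. Its ozone effect was 0.42 on day 1 and -0.13 on day 2, and the difference of -0.55 (SE 0.10, adjusted p = 0.0044) was the same without both replicate 5 arrays (-0.55, adjusted p = 0.016).

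Glutathione synthesis genes fell after ozone on day 1 and had smaller ozone effects on day 2. Gclm encodes the modifier subunit and Gclc the catalytic subunit of glutamate-cysteine ligase, the rate-limiting enzyme of glutathione synthesis. Gclm read 1151 to 1726 (median 1460) after air and 331.2 to 490.6 (median 431.4) after ozone on day 1. Its day 2 air arrays read 1421, 892.1, 1299, 1352 and 529.6 and its day 2 ozone arrays 820.0, 772.8, 772.9, 664.4 and 1485. The day 1 groups stood far apart; on day 2 the first 4 ozone arrays lay below the first 4 air arrays, while air replicate 5 was the lowest and ozone replicate 5 the highest of the 10. The ozone effect was -1.73 on day 1 (3.31-fold lower, adjusted p = 8.9e-08) and -0.25 on day 2, a difference of 1.47 (SE 0.27, adjusted p = 0.0036), the largest positive one among the genes named. Without both replicate 5 arrays the day 2 effect was -0.68 (adjusted p = 0.0018) and the difference 1.05 (adjusted p = 0.0055).

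Gclc differed in the same direction at a smaller size. Its day 1 intensities ran from 657.2 to 839.2 (median 716.9) after air and from 324.4 to 424.0 (median 376.2) after ozone. On day 2 the air arrays read 751.9, 525.3, 611.4, 713.3 and 397.6 and the ozone arrays 527.5, 554.3, 449.2, 462.4 and 887.0. The groups were apart on day 1, and on day 2 air replicate 5 was again the lowest and ozone replicate 5 the highest array. The difference between the days was 0.87 (SE 0.19, adjusted p = 0.012) with all arrays and 0.57 (adjusted p = 0.039) without both replicate 5 arrays, where the day 2 effect was -0.37 (adjusted p = 0.029). Ozone thus lowered both subunits on day 1, and in the setting without those arrays on both days, by less on day 2.

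Gclm and Gclc were the 2 called genes of the 24 NRF2 target and glutathione genes measured, both higher, beside 2.22% of all genes. On day 1 the list had 1 gene called higher and 11 called lower after ozone, beside 11.0% and 13.5% of all genes. On day 2 it had 0, beside 0.164% of all genes, and without both replicate 5 arrays 0 higher and 12 lower, beside 4.79% and 5.05% of all genes. The list's median effect was -0.16 on day 1 and -0.12 on day 2, and -0.26 on day 2 without those arrays. Calls in this list were thus absent on day 2 with all arrays and present without 2 of them, and which day had the larger median depended on those arrays.

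Some chaperone genes fell after ozone on day 1 and had no called effect on day 2 with all arrays. Of 13 heat shock proteins, 4 were called higher in the difference and 0 lower, beside 2.22% and 1.44% of all genes. Without both replicate 5 arrays, 1 was called higher and 1 lower in the difference, beside 0.752% and 0.543% of all genes. The day 2 effect in that setting was called lower for 3 members and higher for 0, beside 5.05% and 4.79% of all genes. Dnaja1, described below, was 1 of these 3, at -0.28. Hspa8, the constitutive cytosolic HSP70, read 3072 to 3729 (median 3250) after air and 1795 to 2468 (median 2107) after ozone on day 1. On day 2 its air arrays read 3619, 3062, 3076, 2888 and 2436 and its ozone arrays 3191, 3162, 2450, 2429 and 4624. The groups were apart on day 1 and overlapped on day 2, and the difference was 0.69 (SE 0.16, adjusted p = 0.018). It was 0.47 without both replicate 5 arrays and did not pass (adjusted p = 0.075).

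The other 3 were Dnaja1, an HSP40 partner of HSP70 (difference 0.66, adjusted p = 0.0070), the small heat shock protein gene Hspb1 (0.56, adjusted p = 0.027) and Hsp90ab1, a constitutive HSP90 (0.47, adjusted p = 0.029). Dnaja1 kept its call without both replicate 5 arrays (0.49, adjusted p = 0.031), although a second probe set of it gave 0.01 with all arrays, and Hspb1 (0.40, adjusted p = 0.12) and Hsp90ab1 (0.28, adjusted p = 0.095) did not. Hspb1 also lost its call without day 1 ozone replicate 3, day 2 air replicate 3, 4 or 5, or day 2 ozone replicate 5, with adjusted p up to 0.063. Hsp90ab1 lost its call without day 1 ozone replicate 6, day 2 air replicate 4 or 5, or day 2 ozone replicate 5, with adjusted p up to 0.071. The member whose difference was called lower without both replicate 5 arrays was Hspe1, the mitochondrial HSP10, at -0.28 (adjusted p = 0.044). It is named after its values were seen, and with all arrays it was at -0.24 (adjusted p = 0.053). The day 1 calls of the list went both ways, 4 higher and 6 lower, beside 11.0% and 13.5% of all genes. The 4 genes with a called higher difference are thus those of the falling members whose gap between the days passed.

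In the endoplasmic reticulum, 2 of 18 unfolded protein response genes were called, both higher, beside 2.22% of all genes. Dnajc3, a co-chaperone that also inhibits the kinase PERK, had effects of -0.25 on day 1 and 0.20 on day 2 (difference 0.45, adjusted p = 0.0079; 0.42 and 0.036 without both replicate 5 arrays). Pdia4, a disulfide isomerase, had a difference of 0.40 (adjusted p = 0.017), and of 0.27 without those arrays (adjusted p = 0.065). Of 20 integrated stress response genes, 0 were called, and Atf5 came closest with 0.42 (adjusted p = 0.10).

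**Figure D3:**
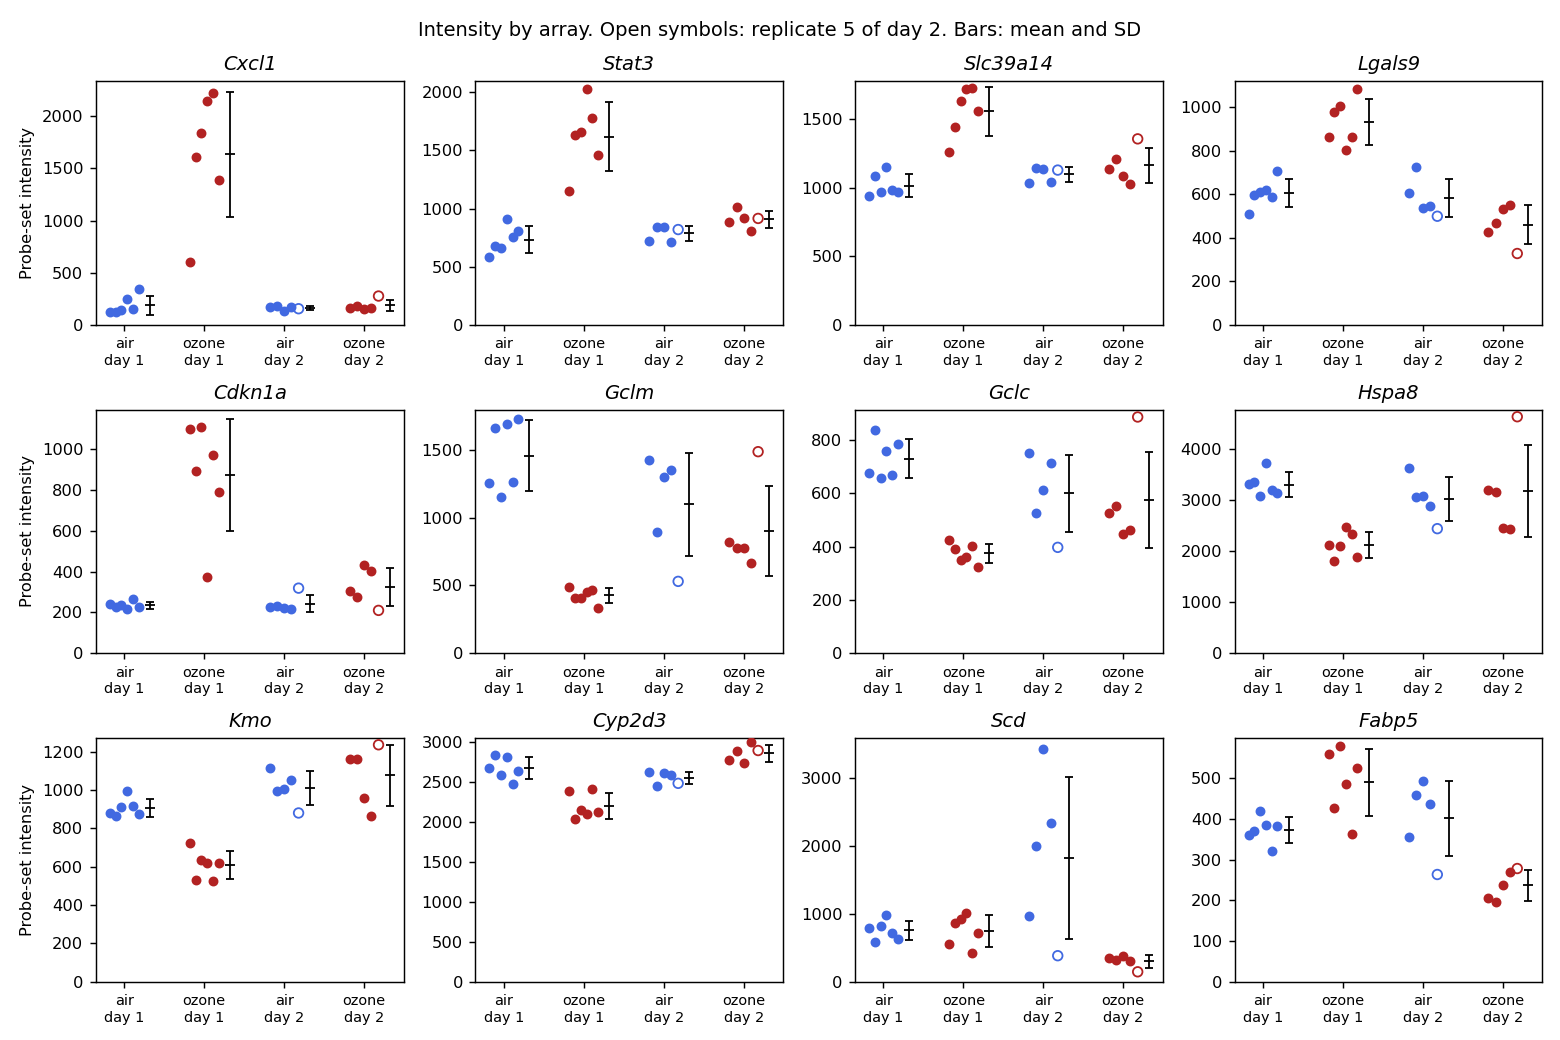
Probe-set intensity (vertical axes, linear, from 0) of 12 genes in each array of the 4 groups, blue for air and red for ozone, with open symbols for replicate 5 of day 2 and bars for mean and SD of each group. In Cxcl1, Stat3 and Lgals9 the day 1 ozone arrays stand above all others, in Gclm, Kmo and Cyp2d3 they stand below, in Slc39a14, Cdkn1a, Gclc and Hspa8 they stand apart from day 1 air but overlap some day 2 arrays, and in Scd and Fabp5 the day 2 ozone arrays are low.

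Kmo and Ftcd, enzymes of amino acid breakdown, fell on day 1 and had no called effect on day 2 with all arrays. Kmo, the kynurenine 3-monooxygenase of tryptophan breakdown, read 863.3 to 993.5 (median 894.2) after air and 524.5 to 724.9 (median 620.2) after ozone on day 1. On day 2 the air arrays read 1116, 996.1, 1006, 1054 and 880.3 and the ozone arrays 1160, 1163, 956.7, 864.5 and 1236. The groups were apart on day 1 and mixed on day 2, and the difference was 0.65 (SE 0.14, adjusted p = 0.0086), or 0.55 without both replicate 5 arrays (adjusted p = 0.047). Ftcd, an enzyme of histidine breakdown, differed by 0.35 (adjusted p = 0.0076), from -0.15 on day 1 to 0.20 on day 2. Its day 2 effect passed, as a rise of 0.22, without both replicate 5 arrays (adjusted p = 0.018). By contrast Tdo2, the first enzyme of tryptophan breakdown, rose on day 1 (0.49, adjusted p = 1.7e-05; named after its values were seen). Of 29 amino acid breakdown genes, 3 were called in the difference, all higher, beside 2.22% of all genes. The remaining one was Prodh2, an enzyme of hydroxyproline breakdown (0.38, adjusted p = 0.031), named after its values were seen. The list's day 1 calls were mostly rises, 11 higher and 2 lower, beside 11.0% and 13.5% of all genes.

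In the urea cycle, 2 of 8 genes were called in the difference, both lower, beside 1.44% of all genes. The list's median difference was -0.19, and that of the amino acid breakdown list was -0.085. Without both replicate 5 arrays these medians were -0.065 and -0.023. Slc25a15, the mitochondrial ornithine carrier, had effects of 1.31 on day 1 and 0.41 on day 2 (difference -0.90, adjusted p = 0.049), and Asl, argininosuccinate lyase, of 1.13 and 0.40 (difference -0.74, adjusted p = 0.049). Without both replicate 5 arrays the day 2 effects were 0.79 and 0.71, both passing, and the differences of -0.53 and -0.42 did not pass (adjusted p = 0.22 for each). Their calls remained in 5 of 22 fits that left out 1 array, those without day 1 air replicate 4 or 5, day 2 air replicate 1, or day 2 ozone replicate 3 or 4. In the other fits the adjusted p reached 0.12 for both.

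Got1 and Sds, both of amino acid breakdown, had the largest day 1 rises after Cxcl1 among the genes that the naming rule took, and their gaps between the days did not pass. Got1, the cytosolic aspartate aminotransferase, read 710.6 to 1887 (median 1262) after air and 5572 to 6194 (median 5872) after ozone on day 1. Its day 2 air arrays read 1069, 1854, 2115, 1406 and 4468 and its day 2 ozone arrays 4740, 3291, 5119, 5349 and 829.9. The day 2 groups overlapped through the replicate 5 arrays alone, the air one standing among the ozone arrays and the ozone one below every air array. The ozone effect was 2.25 on day 1 and 0.75 on day 2, and the difference of -1.50 had a 95% interval from -2.47 to -0.54 with an adjusted p of 0.077. Without both replicate 5 arrays the day 2 effect was 1.54 (adjusted p = 2.6e-05) and the difference -0.71 (adjusted p = 0.29). Sds, serine dehydratase, had a difference of -1.70 (adjusted p = 0.066), and of -1.07 without those arrays (adjusted p = 0.30).

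Of 20 bile acid synthesis and transport genes, 3 were called higher and 0 lower in the difference, beside 2.22% and 1.44% of all genes. The median difference over the list was 0.21, against -0.01 over all genes. The list's median was 0.12 without both replicate 5 arrays, with 1 gene called. Baat, which conjugates bile acids to glycine or taurine, had effects of -0.85 on day 1 and -0.25 on day 2 (difference 0.60, adjusted p = 0.013; 0.36 and 0.022 without both replicate 5 arrays). Its day 2 effect without those arrays was -0.49 and passed. Slc10a1, the NTCP uptake transporter for bile salts, had effects of -0.28 and 0.00 (difference 0.28, adjusted p = 0.035), and 0.23 without those arrays (adjusted p = 0.16). Its call was also lost without day 1 air replicate 2 or 6, day 1 ozone replicate 2 or 4, day 2 air replicate 2 or 5, or day 2 ozone replicate 2 or 5, with adjusted p up to 0.085. The third was Abcb4, which moves phospholipid into bile (0.47, adjusted p = 0.038; 0.079 without those arrays), named after its values were seen. On day 1 the list had 10 genes called lower and 1 higher, beside 13.5% and 11.0% of all genes.

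Cytochrome P450 genes gave the call with the smallest adjusted p of the genes named. Cyp2d3 read 2482 to 2839 (median 2659) after air and 2041 to 2416 (median 2137) after ozone on day 1. On day 2 the air arrays read 2624, 2448, 2612, 2590 and 2485 and the ozone arrays 2778, 2884, 2744, 3005 and 2896. Ozone arrays were all below air arrays on day 1 and all above them on day 2. Groups that do not overlap made up 14.0% of all genes on day 1 and 1.38% on day 2. The effects were -0.28 and 0.16, and the difference of 0.44 (SE 0.07, adjusted p = 0.00073) was 0.43 without both replicate 5 arrays (adjusted p = 0.0030). The day 2 effect on its own did not pass (adjusted p = 0.11). Cyp2d2 gave a difference of 0.25 (adjusted p = 0.0040). The members of this family are similar in sequence, and the probe sets may read more than 1 of them. Of 23 P450 and partner genes, 3 were called higher and 0 lower, beside 2.22% and 1.44% of all genes. The third was Cyp3a18 (0.75, adjusted p = 0.045, or 0.11 without both replicate 5 arrays), named after its values were seen.

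Among lipid synthesis genes, Scd had an ozone effect that passed on day 2 and not on day 1. Scd, the stearoyl-CoA desaturase that makes monounsaturated fatty acids, read 586.3 to 982.5 (median 757.2) after air and 416.2 to 1019 (median 791.5) after ozone on day 1. On day 2 its air arrays read 975.8, 1995, 3428, 2346 and 383.5 and its ozone arrays 344.4, 315.5, 376.5, 308.4 and 146.2. The day 1 groups overlapped, and all day 2 ozone arrays lay below all day 2 air arrays, whose own range was wide. The ozone effect was -0.05 on day 1 and -2.27 on day 2 (4.83-fold lower, adjusted p = 0.029), a difference of -2.22 (SE 0.61, adjusted p = 0.038), with -1.28 from the ozone side and 0.94 from the air side. It was -2.46 without both replicate 5 arrays (adjusted p = 0.023). The call was lost when 1 of 14 arrays was left out, namely day 1 air replicate 2, 3, 5 or 6, day 1 ozone replicate 2, 3, 4 or 6, day 2 air replicate 2, 3 or 4, or day 2 ozone replicate 1, 2 or 5. The adjusted p then reached at most 0.10.

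Fabp5, a fatty acid-binding protein, read 320.6 to 419.1 (median 376.9) after air and 363.7 to 580.2 (median 505.7) after ozone on day 1. Its day 2 air arrays read 356.7, 459.5, 492.5, 436.4 and 263.7 and its day 2 ozone arrays 204.8, 195.2, 236.8, 270.1 and 278.4. The groups overlapped on day 1, and on day 2 all ozone arrays lay below the first 4 air arrays but 2 of them above air replicate 5. The effects were 0.37 and -0.70, neither passing alone (adjusted p = 0.076 and 0.056), and the difference was -1.07 (SE 0.22, adjusted p = 0.0070), or -1.27 without both replicate 5 arrays (adjusted p = 0.0045). The estimates for the 2 days had opposite signs, but since neither passed with all arrays, a change of sign was not shown. Fabp7, another member of this family, went the other way, with effects of -1.62 and -0.20 and a difference of 1.42 (SE 0.25, adjusted p = 0.0030; 1.09 and 0.0086 without those arrays). Its day 2 effect without those arrays was -0.53 and passed. With all arrays, Fabp7 changed from day 1 to day 2 by 0.88 in ozone livers and by -0.545 in air livers. The change in air livers did not pass (limma adjusted p = 0.72).

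Scd was the 1 called gene of the 22 fatty acid and triglyceride synthesis genes. Fasn, the fatty acid synthase, had effects of -0.22 and -1.13 and a difference of -0.91 that did not pass (adjusted p = 0.13), but passed without both replicate 5 arrays (-1.21, adjusted p = 0.044). The list's median effect size was 0.17 on day 1 and 0.34 on day 2, and 0.49 on day 2 without those arrays, where 3 members were called higher and 12 lower on day 2, beside 4.79% and 5.05% of all genes. In 5 of its 22 genes the ozone effect was smaller on day 2, against 9572 of all 13437 genes.

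Of 24 fatty acid oxidation genes, 1 had a called difference, a higher one. Acaa2, the mitochondrial thiolase of beta-oxidation, read 3194 to 3724 (median 3518) after air and 3269 to 3879 (median 3635) after ozone on day 1. On day 2 its air arrays read 3328, 3166, 2759, 3009 and 4149 and its ozone arrays 4365, 4438, 4025, 4434 and 4454. All ozone arrays but 1 lay above the air arrays on day 2, and air replicate 5 lay above that 1. The difference was 0.37 (SE 0.10, adjusted p = 0.028), with 0.05 on day 1 and 0.42 on day 2 (adjusted p = 0.015), and 0.45 without both replicate 5 arrays (adjusted p = 0.0060). Its call was lost without day 1 air replicate 6, day 2 air replicate 3 or 4, or day 2 ozone replicate 5, with adjusted p up to 0.062. In the setting without both replicate 5 arrays, 12 of the 24 genes were called higher and 0 lower on day 2, beside 4.79% and 5.05% of all genes, against 10 and 1 on day 1, beside 11.0% and 13.5%. Cpt1a, the carnitine palmitoyltransferase that lets fatty acids into mitochondria, had effects of 0.93 on day 1 and 0.10 on day 2 (difference -0.84, adjusted p = 0.086; 0.44 without those arrays). A second probe set of Cpt1a was called, at -1.01.

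Carbohydrate genes gave few calls. Pck1, phosphoenolpyruvate carboxykinase of gluconeogenesis, had effects of -0.37 on day 1 and 0.00 on day 2 (difference 0.38, adjusted p = 0.021; 0.36 and 0.062 without both replicate 5 arrays). It was the 1 called gene of 18 gluconeogenesis genes and of 19 glucocorticoid-induced genes, 2 lists that share it. The glucocorticoid list had 0 genes called lower. Its median difference was -0.22, or -0.09 without both replicate 5 arrays, with a median effect of 0.22 on day 1 and 0.10 on day 2. Of 19 glycolysis genes, 1 was called lower, Pgam1, a phosphoglycerate mutase (-0.27, adjusted p = 0.027). Its call was lost without day 1 ozone replicate 3, day 2 air replicate 5, or day 2 ozone replicate 2 or 5 (adjusted p up to 0.075), and without both replicate 5 arrays (-0.21, adjusted p = 0.13).

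The remaining genes with the largest differences had mixed functions. Higher on day 2 were St3gal6, a sialyltransferase (1.20, from -1.48 to -0.28), Ptger3, a receptor for prostaglandin E2 (1.04, from -1.11 to -0.07), and Id4, an inhibitor of DNA-binding helix-loop-helix factors (0.98, from -1.05 to -0.07). Glyat, a mitochondrial enzyme that joins glycine to acyl groups, differed by 0.87, Slc17a2, a solute carrier, by 0.84, and Cobl, an actin nucleator, by 0.82, although a second probe set of Cobl gave -0.11. Glyatl2, a relative of Glyat, had a difference of 0.75 with effects of -0.42 and 0.33. Each of these 7 genes kept its call without both replicate 5 arrays. In that setting the day 2 effects of St3gal6, Glyat, Slc17a2 and Cobl passed, at -0.69, -0.66, -0.61 and -0.345. Their differences were then 0.79, 0.545, 0.50 and 0.61. The day 2 effects of Ptger3, Id4 and Glyatl2 did not pass there. Second probe sets gave the same sign without passing for Gclc (0.45), Slc39a14 (-0.15), Hsp90ab1 (0.43), Acaa2 (0.17) and Nap1l1 (0.30). In Ptger3, Id4, Cdkn1a, Stat3, Slc25a15, Rrm2 and Asl, 1 further probe set was called in the same direction.

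Cdk2ap2, a binding partner of a cyclin-dependent kinase, differed by 0.78 and lost its call without day 2 air replicate 5 (adjusted p = 0.055) and without both replicate 5 arrays (adjusted p = 0.073). Tuba4a, an alpha tubulin, differed by 0.76 (adjusted p = 0.048) and kept its call in 5 of 22 fits that left out 1 array, those without day 1 air replicate 5, day 1 ozone replicate 1, day 2 air replicate 1, or day 2 ozone replicate 3 or 4. In the other fits its adjusted p reached 0.13.

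Lower on day 2 were Pnpla2, the triglyceride lipase ATGL (-1.0, from 1.31 to 0.32), Kif21a, a kinesin (-0.97, from 1.36 to 0.40), and Mrps31, a mitochondrial ribosomal protein (-0.92, from 1.09 to 0.17), all called without both replicate 5 arrays too. In that setting the day 2 effects of Pnpla2 and Kif21a passed, at 0.626 and 0.695, and that of Mrps31 did not. Their differences were then -0.69, -0.67 and -0.77. Dipk1c (-0.96) and Coq10b, a coenzyme Q-binding protein (-0.90), were not called without both arrays (adjusted p = 0.067 and 0.089). The day 2 effect of Dipk1c was 0.76 there and passed, while that of Coq10b was -0.14 and did not. Coq10b lost its call also without day 1 air replicate 3, day 1 ozone replicate 3, day 2 air replicate 3, or day 2 ozone replicate 2 or 5 (adjusted p up to 0.070).

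Some falls of day 1 were not called as different on day 2. Hsd17b2, a dehydrogenase of sex steroids, had the largest day 1 fall among the genes that the rule took, with effects of -2.66 on day 1 and -1.31 on day 2 (difference 1.35, adjusted p = 0.14), and of -2.03 on day 2 without both replicate 5 arrays (adjusted p = 1.7e-05). Nrep, a gene first described in regenerating neurons, read 870.4 to 1809 (median 1427) after air and 252.3 to 507.0 (median 338.5) after ozone on day 1. On day 2 the air arrays read 1347, 2014, 1242, 1178 and 226.2 and the ozone arrays 249.5, 268.9, 224.6, 251.8 and 677.0. The 4 first ozone arrays of day 2 were below the 4 first air arrays, and the replicate 5 arrays were again reversed. The difference of 0.22 (adjusted p = 0.90) had a 95% interval from -0.96 to 1.40, so the data do not show that the effects were equal. The interferon response list had no called gene for the difference (0 of 21). On day 1 it had 11 genes called lower and 0 higher, beside 13.5% and 11.0% of all genes. Its median effects were -0.28 on day 1 and -0.37 on day 2. Mx2, an interferon-induced GTPase, was at -1.18 and -1.27, and this gene was chosen after its values were seen. In the setting without both replicate 5 arrays, 14 interferon genes were called lower on day 2, beside 5.05% of all genes, and the list's median was -0.47.

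Nap1l1, a nucleosome assembly protein and 1 of the genes with the largest day 2 effects, was called in the difference. It differed by 0.37 (adjusted p = 0.039; day 2 effect 0.50) and lost its call without any 1 of 13 arrays, with adjusted p up to 0.082: day 1 air replicate 2, 3, 4 or 6, day 1 ozone replicate 3 or 6, day 2 air replicate 2, 3 or 4, or day 2 ozone replicate 1, 2, 3 or 5. Its difference was also called without both replicate 5 arrays (0.46). Lgalsl, a galectin-like protein, Fads2, a fatty acid desaturase, and Pklr, liver pyruvate kinase, had day 2 effects of 0.87, -0.90 and -0.89 and differences of -0.45, -0.38 and -0.40 that did not pass.

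Of the lists not yet described, 0 members were called in the difference among 16 immediate early genes, 17 circadian clock genes, 19 cholesterol synthesis genes, 5 ketone body genes, 17 growth hormone targets, 21 oxidative phosphorylation genes and 13 cytosolic ribosomal protein genes. The cholesterol list had 9 genes called lower and 1 higher on day 1, beside 13.5% and 11.0% of all genes. Its median effects were -0.28 on day 1 and -0.20 on day 2. Without both replicate 5 arrays 1 ketone body gene was called higher, Acat1, a mitochondrial thiolase (0.33). The clock gene Tef came closest to a call (0.34, adjusted p = 0.052). Among the marker lists, Asgr1, the hepatocyte asialoglycoprotein receptor, was called (0.34, adjusted p = 0.0069), 1 of 13 hepatocyte markers, and Epcam was called (0.41, adjusted p = 0.044), 1 of 10 cholangiocyte markers.

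Epcam lost its call without both replicate 5 arrays (adjusted p = 0.13) and in 16 of 22 fits that left out 1 array (adjusted p up to 0.091), all but those without day 1 air replicate 1, 2 or 5, day 1 ozone replicate 1, day 2 air replicate 1, or day 2 ozone replicate 3. Summed cholangiocyte marker intensities ran from 1800 to 3064 after air and 1807 to 2025 after ozone on day 1, and from 1785 to 2995 and 1842 to 1999 on day 2. Those ranges overlapped within both days. Kupffer cell and macrophage markers summed to 7468 to 8927 and 5817 to 9138 on day 1, and to 5302 to 9065 and 4629 to 6482 on day 2, and their part in the results was not tested.

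**Figure D4:**
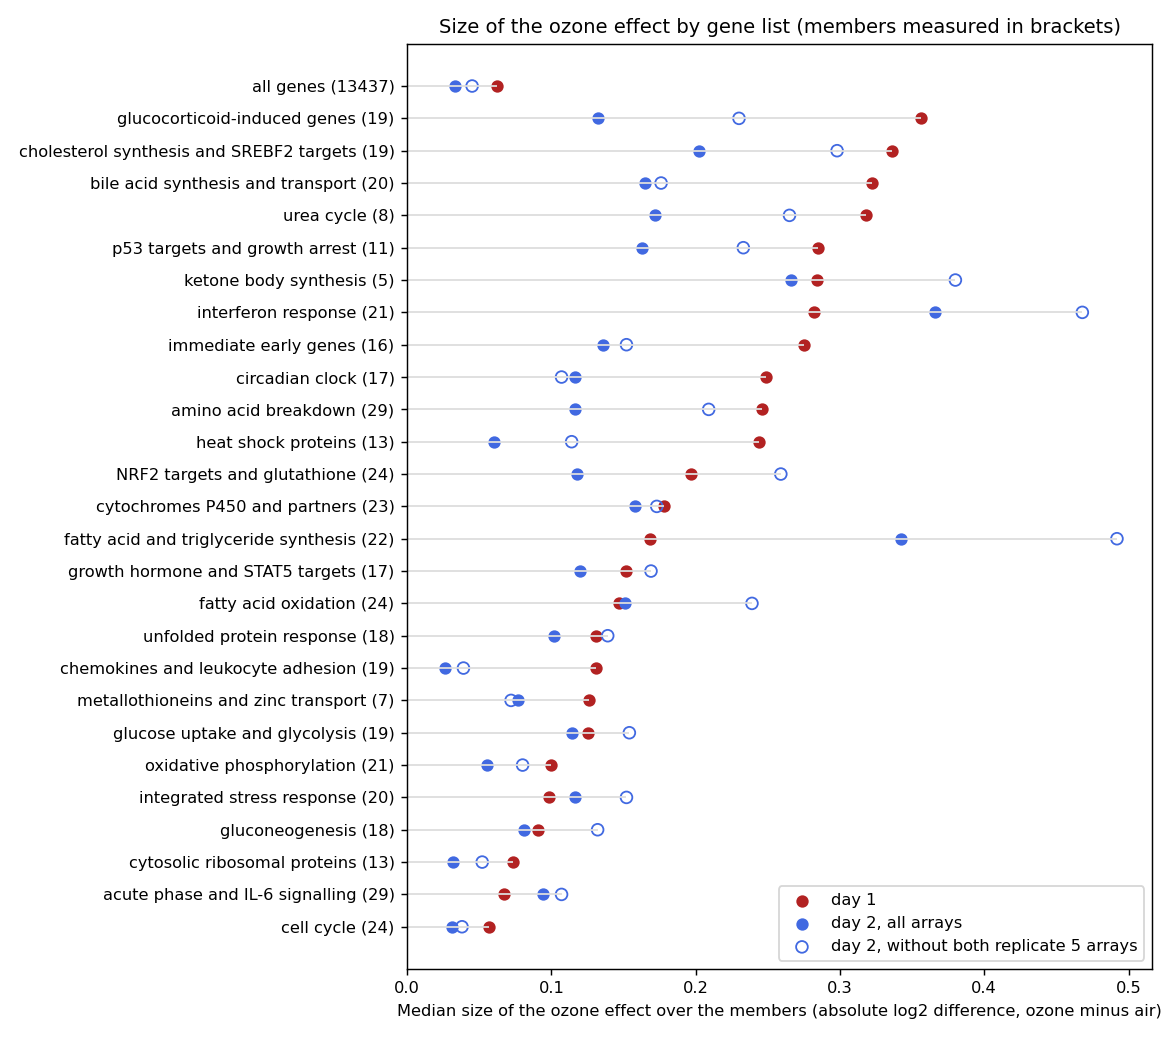
Median size of the ozone effect (horizontal axis, absolute log2 difference, ozone minus air) over the measured members of each gene list and over all 13437 genes, for day 1 (red), day 2 (filled blue) and day 2 without both replicate 5 arrays (open blue). Heat shock, glucocorticoid and bile acid genes lie lower on day 2 than on day 1 in both settings, fatty acid synthesis and interferon genes lie higher, and for the NRF2 list the order of the days depends on those 2 arrays.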

How the data were processed

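Liver RNA was hybridised to 32 Affymetrix rat arrays of 1 colour. The deposited values are each probe set's intensity on a linear scale. Per the submitters' processing notes, the authors used Affymetrix Expression Console and PLIER, which summarises the probes of a set. Tool versions, background correction and between-array scaling were not given in the sources used here. Signal of nonspecific binding remains in the values, so fold changes of dim genes are understated.

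Groups and replicate numbers came from the sample titles. Control probe sets (97 of 31139) and those with no gene (11407) or several genes (573) in the platform annotation were left out. Intensities were analysed as log2(value + 16) in R 4.3.3 with limma 3.58.1 (lmFit, contrasts.fit, eBayes with an intensity trend), in 1 model of all 32 arrays with a mean for each of 6 groups, no block, no further scaling and no filter on dim probe sets. Pairs of arrays correlated at 0.967 to 0.997, and 0 pairs were identical. The fit was tested on simulated data with known differences. Figures used Python 3.11.15 and matplotlib 3.10.9.

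The 35 gene lists, 9 of them of cell type markers, the members compared and the rule for naming genes were chosen with earlier results of these data known. The rule took the 12 largest called differences in each direction (LOC and RGD names passed over), the 5 largest called rises and falls of each day, and from each list the 2 members with the smallest p, or up to 4 where 4 or more passed. From marker lists it took called members. The result of 1 gene with a called difference is not reported here, and some genes that the rule took without a called difference are not described. The alternatives tried were other offsets, quantile normalisation, median centring, a filter below the 25th percentile, fewer arrays, array weights, robust or untrended eBayes, replicate blocks and leaving arrays out. Same-numbered air and ozone arrays of a day did not deviate together (11 pairs, r from -0.56 to 0.02), so numbers were not taken as pairs. These correlations cannot show whether such samples were exposed or processed together.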

Additional observations from a re-analysis of the deposited data

Results flagged for a closer look

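The ozone effect differed between day 1 and day 2 by a test of the difference itself in 618 probe sets, and these include 46 genes that the naming rule took and 3 named after their values were seen. With the day 2 effect above the day 1 effect, the log2 differences were 1.47 for Gclm, 1.42 for Fabp7, 1.20 for St3gal6, 1.04 for Ptger3, 0.98 for Id4, 0.87 for Glyat and for Gclc, 0.84 for Slc17a2, 0.82 for Cobl, 0.78 for Cdk2ap2, 0.76 for Tuba4a and 0.75 for Glyatl2. Smaller ones were 0.69 for Hspa8, 0.66 for Dnaja1, 0.65 for Kmo, 0.60 for Baat, 0.56 for Hspb1, 0.47 for Hsp90ab1, 0.45 for Dnajc3, 0.44 for Cyp2d3, 0.41 for Epcam, 0.40 for Pdia4, 0.38 for Pck1, 0.37 for Nap1l1 and for Acaa2, 0.35 for Ftcd, 0.34 for Asgr1, 0.28 for Slc10a1 and 0.25 for Cyp2d2. The 3 genes named after their values were seen gave 0.75 for Cyp3a18, 0.47 for Abcb4 and 0.38 for Prodh2.

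With the day 2 effect below the day 1 effect, they were -2.86 for Cxcl1, -2.22 for Scd, -1.38 for Cdkn1a, -1.07 for Fabp5, -1.0 for Pnpla2, -0.97 for Kif21a, -0.96 for Dipk1c, -0.95 for Lgals9, -0.92 for Stat3 and for Mrps31, and -0.90 for Slc25a15 and for Coq10b. Smaller ones were -0.74 for Asl, -0.58 for Ccng1, -0.55 for Rrm2, -0.53 for Slc39a14 and -0.27 for Pgam1.

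In 15 genes shown by array, 60 groups were examined for a single array far from the others of its group, by Dixon's criterion, and 10 such arrays were found. For independent groups, chance gives such an array in about 1 in 20. The 15 genes were read on the same 22 arrays, so the 60 groups are not independent and the count carries no test. Day 2 ozone replicate 5 was the array in 5 of them: it was highest for Cxcl1 (276.0), Gclm (1485) and Nrep (677.0) and lowest for Scd (146.2) and Got1 (829.9). Day 2 air replicate 5 was highest for Cdkn1a (319.4) and lowest for Nrep (226.2). The others were day 1 ozone replicate 1 for Cxcl1 (601.8, lowest), day 1 ozone replicate 4 for Cdkn1a (372.1, lowest) and day 2 ozone replicate 3 for Acaa2 (4025, lowest).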

How the results depend on the processing

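The difference between the days was called for 618 probe sets and kept a count within 1.5 times of this with other offsets, quantile normalisation, median centring, a filter on dim probe sets, only the arrays of the 4 groups, and robust or untrended eBayes. It was 1030 with array weights and 333 without day 1 air replicate 2 and ozone replicate 3 (chosen after the data were seen), and the cause was not tested. It was 214 without both replicate 5 arrays of day 2, where the slope of day 2 on day 1 effects was 0.593. Leaving out 1 array gave 263 to 926 (lowest without day 2 ozone replicate 5, highest without day 2 air replicate 1).

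With the replicate number as a block it was 396, and with a block for each number within a harvest time 44, beside 9 and 3 for the day 2 effect. Among same-numbered arrays, 0 of 11 pairs correlated above 0.1, and 0 arrays correlated best with their own number. This cannot show whether same-numbered samples were exposed or processed together. The changes over time within air or within ozone livers could not be fitted with the second block, and the first gave 5 probe sets for air.

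The day 2 effect was called for 29 probe sets. It gave 16 and 17 with offsets of 1 and 64, 105 without dim probe sets, 82 over the brightest remaining ones, 140 after quantile normalisation, 68 after median centring, 44 with only the arrays of the 4 groups, 88 without the trend, 14 with robust eBayes, 2345 with array weights, 14 without day 1 air replicate 2 and ozone replicate 3, and 1635 without both replicate 5 arrays. Leaving out 1 array gave 1 to 1068 (1 without day 2 air replicate 2, 1068 without day 2 air replicate 5), with 490 without day 2 ozone replicate 5.

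The day 1 effect stayed within 1.5 times of 4316 in every alternative run. Day 2 against day 1 gave 1090 to 2182 probe sets in ozone livers and 2 to 13 in air livers when 1 array was left out, and in air livers 1 over the brightest probe sets and 139 with array weights. The 47 called differences that the naming rule took kept their sign in each alternative, while 16 lost their call without both replicate 5 arrays, 14 without the 2 day 1 arrays and 39 with the block within harvest time. Dim probe sets lie near the nonspecific signal, which limits what can be seen of them.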
